A study of Mus musculus with 2 samples.

Results

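The genes of prostaglandin (PG) synthesis were followed on arrays of cultured mouse ovary. The 10 genes were chosen by name as the cyclooxygenases Ptgs1 (COX-1) and Ptgs2 (COX-2) and the enzymes that act after them, Ptges, Ptges2, Ptges3, Ptgds, Hpgds, Ptgis, Tbxas1 and Cbr1. Each gene was found through the RefSeq accession of its probes, which gave 14 probes and 23 spots among the 20665 named genes, 55674 probes and 59305 spots that are not controls. All 10 were present on the array, Ptges with 2 probes, Ptges3 with 4 probes and the other 8 genes with 1 probe each.

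The data are 2 single-colour arrays of ovaries from 2-week-old mice, cut into pieces and cultured for 3 days. One array held RNA from pieces kept with agonists of the tachykinin receptors (TKRs) TACR1 ([Sar9, Met(O2)11]-SP), TACR2 (GR-64349) and TACR3 (a succinylated analogue of a substance P fragment). The other held RNA from pieces kept with antagonists of TACR1, TACR2 (GR-94800) and TACR3 (SB218795). Each ligand was at 1 μM. The study describes the antagonists as a joint treatment, whereas its array methods list the ligands as alternatives. The study names more than 1 mouse strain and also knockout mice. The sources used here do not say which strain or genotype, or how many ovaries, gave each RNA. Ovaries cultured without ligand were not analysed here, so a difference between the arrays can come from either ligand set. With 1 array per group there is no spread between ovaries, no test was made, and the values compare these arrays and not the conditions.

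Tissue identity was checked on defining markers. The oocyte genes Gdf9, Bmp15 and Zp3 and the granulosa genes Foxl2 and Inha were well above background on both arrays, as was Cyp17a1 of theca cells, whereas the luteinizing hormone receptor gene Lhcgr was not well above background on either array. In whole tissue, fewer cells of a type and less RNA per cell cannot be told apart.

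PG synthesis starts when a phospholipase frees arachidonic acid from membranes. The cyclooxygenases turn it into the unstable intermediate PGH2, and a set of terminal enzymes then decides which product a cell makes: PGD2, PGE2, PGF2α, prostacyclin or thromboxane. In the ovary, PGE2 is known for its part in cumulus expansion and ovulation, and PGF2α for the regression of the corpus luteum. The question here was how the terminal enzymes compared between agonist and antagonist cultures, beside both cyclooxygenases.

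The sequence before the start of a gene is where the regulatory letters of the inducible and the constitutive cyclooxygenase are usually compared, so the windows of both are shown, with those of Ptgds and Tbxas1, which were higher with the agonists, and of Ptges, which was not. The sequences are those RefSeq lists for GRCm38.p6, from 250 bases before the annotated start to 30 bases after it, 5′ to 3′ on the strand of the gene. The array was designed on mm9, and no coordinate of the array was used. Capitals mark matches, on either strand, to the TATA box TATAAA, the GC box GGGCGG, the E-box CACGTG, the STAT element TTCNNNGAA and the AP-1 element TGANTCA, and overlapping matches run together.
Ptgs2 (chr1:150099781-150100060, plus strand): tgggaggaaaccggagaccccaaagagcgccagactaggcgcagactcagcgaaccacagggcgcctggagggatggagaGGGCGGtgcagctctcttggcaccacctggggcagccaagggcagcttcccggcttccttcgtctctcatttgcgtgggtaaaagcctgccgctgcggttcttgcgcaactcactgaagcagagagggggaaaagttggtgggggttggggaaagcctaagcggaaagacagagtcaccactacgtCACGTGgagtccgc
Ptgs1 (chr2:36230176-36230455, plus strand): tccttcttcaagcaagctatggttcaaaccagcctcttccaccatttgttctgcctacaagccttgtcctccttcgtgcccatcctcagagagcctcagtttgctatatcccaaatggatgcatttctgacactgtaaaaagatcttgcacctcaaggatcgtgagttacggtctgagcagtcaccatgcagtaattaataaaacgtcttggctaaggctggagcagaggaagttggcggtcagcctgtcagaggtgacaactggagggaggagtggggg
Ptgds (chr2:25469720-25469999, minus strand): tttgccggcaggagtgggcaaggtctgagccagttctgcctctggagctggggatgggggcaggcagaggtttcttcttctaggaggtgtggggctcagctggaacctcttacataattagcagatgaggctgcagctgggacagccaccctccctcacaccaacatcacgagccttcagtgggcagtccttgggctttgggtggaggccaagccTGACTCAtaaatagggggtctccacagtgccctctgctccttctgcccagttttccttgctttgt
Tbxas1 (chr6:38918736-38919015, plus strand): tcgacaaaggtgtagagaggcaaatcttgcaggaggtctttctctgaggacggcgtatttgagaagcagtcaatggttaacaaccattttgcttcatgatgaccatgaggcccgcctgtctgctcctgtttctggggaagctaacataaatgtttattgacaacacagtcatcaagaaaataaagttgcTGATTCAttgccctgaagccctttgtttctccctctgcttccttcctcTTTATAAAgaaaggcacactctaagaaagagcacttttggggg
Ptges (chr2:30903268-30903547, minus strand): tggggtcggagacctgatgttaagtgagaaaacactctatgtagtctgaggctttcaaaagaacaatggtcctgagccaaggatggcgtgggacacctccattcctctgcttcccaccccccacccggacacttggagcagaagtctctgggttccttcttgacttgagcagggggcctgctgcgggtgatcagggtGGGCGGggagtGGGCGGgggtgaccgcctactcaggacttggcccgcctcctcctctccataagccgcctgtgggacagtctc

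Of the 10 genes, 9 had a window in the table and Ptgis had none. The Ptgs2 window held 1 GC box and, at base 17 after the start, 1 E-box, whereas the Ptgs1 window held none of the 5 motifs. The AP-1 letters were found in Ptgds, from base -35, and in Tbxas1, from base -61, and in no other of the 9 windows. A TATAAA was found in Tbxas1 alone among the 9, on both strands in overlapping positions. GC boxes were found in Ptgs2, Ptges and Ptges3, and an E-box in Ptgs2 and Ptges2. The STAT letters were in 0 of the 9. Over the 32851 windows of the whole table, TATAAA was present in 13.1%, GGGCGG in 34.7%, CACGTG in 6.79%, TTCNNNGAA in 7.83% and TGANTCA in 7.46%. These matches are descriptions of letters, not binding sites. Only the windows around the annotated starts were searched, so a motif outside them would be missed.

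Signals are the intensities left by the image software after its background correction, in array units. A log2 ratio is log2 of the signal with agonists minus log2 of the signal with antagonists, after each array was reduced by its 75th percentile, 672 units for the agonist array and 569 for the other. A value of 1 stands for a 2-fold difference. For a probe at 1 spot the error is the one the software gives for that spot, carried to the ratio, and it covers the spot and not the ovaries.

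COX-1, the form most tissues express at rest, was measured by 1 spot of Ptgs1. Agonist culture gave a signal of 397 ± 39.9, against 126 ± 13.3 in antagonist culture (software error, 1 spot each). The log2 ratio was 1.41 ± 0.21, or 2.66-fold higher with the agonists. The study, by contrast, reported that COX-1 expression did not change with these ligands. COX-2, the form induced by cytokines, growth factors and gonadotropins, was measured by 10 spots of Ptgs2. Its signals lay between 27.7 and 44.9 with the agonists, where 10 of 10 spots were well above background, and between 4.49 and 19.0 with the antagonists, where 0 of 10 were, although 8 of 10 were positive and significant by the milder mark of the software. The means were 37.6 ± 5.65 and 9.67 ± 4.84 (SD over 10 spots of 1 array). The antagonist spots of COX-2 were dim, so only a lower bound of the difference is given: at least 1.58-fold higher with the agonists. Among the 846 genes well above background on the agonist array only, 14.4% had a bound of at least 2-fold and 73.9% a bound above 1-fold.

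**Figure D1:**
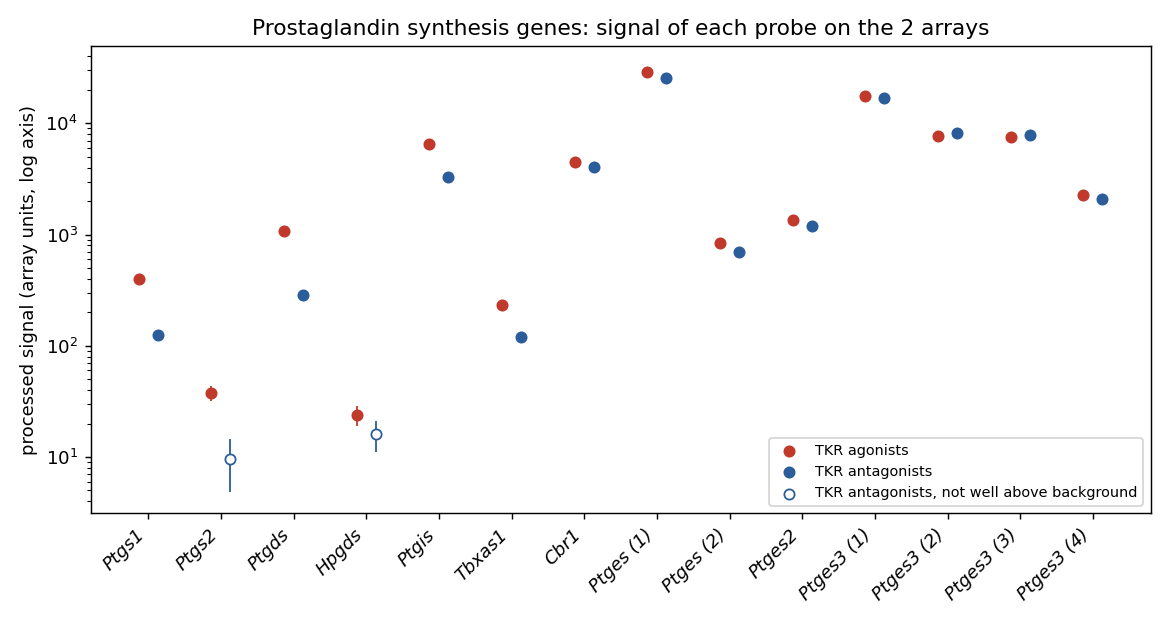
Processed signal (array units, log axis) of each of the 14 probes on the agonist array (red) and the antagonist array (blue), unscaled, numbered by signal where a gene has several probes. Bars are the software error of a spot, or the SD over the 10 spots of Ptgs2, and most are smaller than the point; the red points of Ptgs1, Ptgds, Ptgis and Tbxas1 stand clear of the blue ones, and only Ptgs2 and Hpgds have open points, on the antagonist array.

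The PGD2 synthases came next in the chain. Ptgds, the lipocalin-type enzyme that also carries lipophilic molecules outside cells, had a signal of 1082 ± 108 with the agonists and 284 ± 28.7 with the antagonists (1 spot each). Its log2 ratio of 1.69 ± 0.21, or 3.22-fold, was the highest of the 8 genes measured well above background on both arrays. Hpgds, the glutathione-dependent enzyme of mast cells and other haematopoietic cells, was close to background, with 24.0 ± 4.97 in agonist culture against 15.9 ± 4.93 in antagonist culture. It was well above background on the agonist array only, and its bound of at least 1.02-fold was no difference beyond the error of the spots. Of the PGD2 enzymes, Ptgds alone gave a ratio.

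Prostacyclin and thromboxane A2, which oppose each other on vessels and platelets, are made by a pair of cytochrome P450 enzymes. Ptgis, the prostacyclin synthase, gave 6488 ± 649 against 3294 ± 329, agonists first, a log2 ratio of 0.74 ± 0.20 or 1.67-fold. Tbxas1, the thromboxane synthase, had 235 ± 23.8 and 121 ± 12.8, a log2 ratio of 0.72 ± 0.21 or 1.64-fold. Both were higher with the agonists by more than the error of their spots, which does not cover the ovaries. Their ratios differed from each other by 0.02, within the joined error of 0.29. Neither reached 2-fold.

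The enzymes of PGE2 synthesis gave ratios near those of most genes. Ptges (mPGES-1), the inducible membrane enzyme that commonly works with COX-2, had signals of 29103 ± 2910 and 25478 ± 2548 on its brighter probe, a log2 ratio of -0.05 ± 0.20. Its other probe gave 837 ± 83.8 and 698 ± 70.0, a log2 ratio of 0.02 ± 0.20, so the probes differed by 0.07. Ptges2, a membrane-associated PGE synthase, had 1360.4 ± 136 and 1199 ± 120.0, a log2 ratio of -0.06 ± 0.20. Ptges3 (cPGES or p23), a cytosolic PGE synthase better known as a co-chaperone of Hsp90, had signals of 17583 against 16945, 2261 against 2107, 7487 against 7849 and 7673 against 8155 on its 4 probes, agonists first. The log2 ratios were -0.19, -0.14, -0.31 and -0.33, with a mean of -0.24 ± 0.09 (SD over 4 probes). All 4 were below 0 with the 75th percentile scaling; for the brightest probe the sign turned, to 0.05 without scaling and 0.09 with spike-in scaling. A pseudogene, Ptges3-ps, is annotated in the mouse, and whether the probes also bind its transcripts could not be checked, since the files give no probe sequences.

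Cbr1, the carbonyl reductase that can turn PGE2 into PGF2α among many other substrates, had 4482 ± 448 with the agonists and 4046 ± 405 with the antagonists. Its log2 ratio was -0.09 ± 0.20, close to the median of -0.10 over all 15259 genes well above background on both arrays.

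Set side by side, the 8 genes divided into a higher and a lower set of 4 each. From the top, the log2 ratios were 1.69 for Ptgds, 1.41 for Ptgs1, 0.74 for Ptgis and 0.72 for Tbxas1, and then -0.05 for Ptges, -0.06 for Ptges2, -0.09 for Cbr1 and -0.19 for Ptges3. The step between Tbxas1 and Ptges, 0.77, was larger than the joined error of both spots, 0.29, as was the step of 0.68 between Ptgs1 and Ptgis. Ptgds and Ptgs1 differed by 0.28, Ptgis and Tbxas1 by 0.02, and no neighbours among the lower 4 by more than 0.09, all within the joined errors. By product, the measured enzymes of PGD2, prostacyclin and thromboxane were in the higher set with COX-1, and those of PGE2 in the lower set with Cbr1. The sets were cut at the largest step between these same 8 ratios, so the division is a description only. PGD2, prostacyclin and thromboxane each rest on 1 gene at 1 spot, and Hpgds gave no ratio. The lower set lay near the median of all genes, -0.10.

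Of the 8 genes, 2 (Ptgds and Ptgs1) exceeded the antagonist array 2-fold or more, and 0 lay 2-fold or more below it. Over all 15259 genes well above background on both arrays, 4.02% were 2-fold higher or more and 0.577% as far below, and over all 33073 such probes 2.69% and 0.705%. For the dimmer genes, with a mean signal below the 75th percentile, where Ptgds, Ptgs1 and Tbxas1 lie, 6.39% were 2-fold higher or more and 1.01% as far below, against 2.1% and 0.225% of the brighter genes. At 1.5-fold, Ptgis and Tbxas1 joined them, which made 4 of 8, and 0 were as far below, where 9.27% of all genes were at least 1.5-fold higher and 4.28% lower. The median log2 ratio of the 8 was 0.33, with 4 above 0 and 4 below, and 37.7% of all genes were above 0. Among all probes well above background on both arrays, 0.70% had a ratio at or above that of Ptgds, 1.15% of Ptgs1, 4.77% of Ptgis and 5.00% of Tbxas1. No test is attached to these counts, and with 8 genes they describe the list only.

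**Figure D2:**
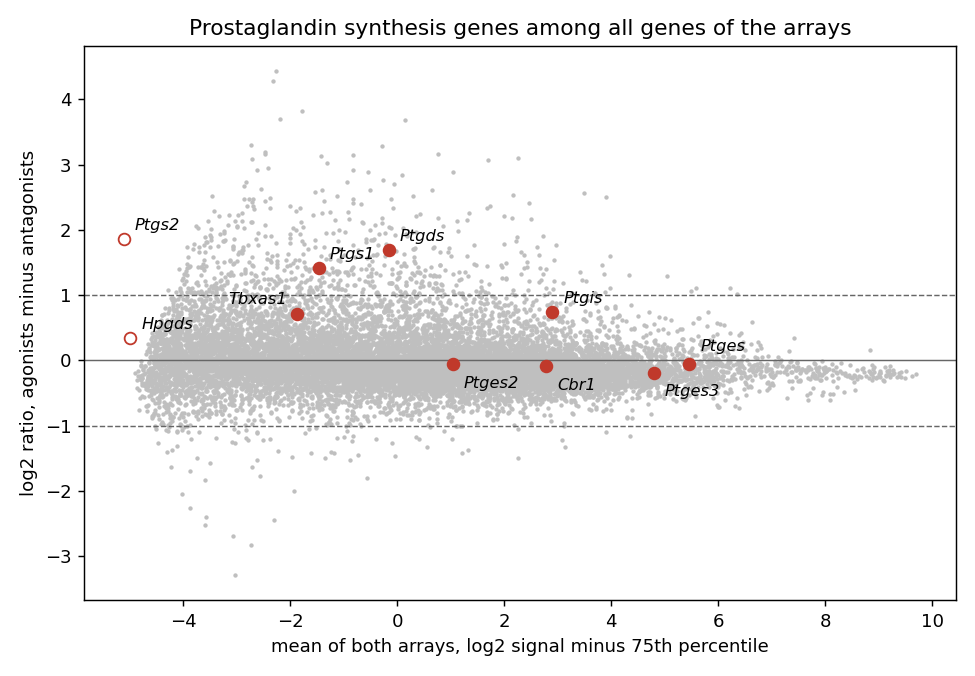
Log2 ratio (agonists minus antagonists) against the mean scaled log2 signal of both arrays, for the 15259 genes well above background on both (grey) and the 10 prostaglandin synthesis genes (red; open for Ptgs2 and Hpgds, which were not well above background with the antagonists, so that their height is the face value). Dashed lines mark 2-fold; Ptgds and Ptgs1 lie above the upper line at middle and low signal, while Ptges and Ptges3 lie in the grey band at high signal.

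The precision of these values was looked at in other ways. Among 3782 genes with over 1 probe well above background on both arrays, the SD between the probes of a gene had a median of 0.11 and a 90th percentile of 0.35 on the log2 ratio. Among 284 probes printed at 10 spots and well above background at all of them, the SD between spots had a median of 0.07. Both are smaller than the ratios of Ptgds, Ptgs1, Ptgis and Tbxas1, each of which rests on 1 spot per array. Between genes the spread was wider, with an SD of the log2 ratio of 0.48 over all 15259 genes. For the dim probe of Ptgs2 the SD between spots was 0.80, so the 0.07 does not carry over to dim spots. Around their spots on the slide, the median log2 ratio within 5 rows and columns was -0.10 for Ptgds, -0.09 for Ptgs1, -0.04 for Ptgis and -0.16 for Tbxas1, and with it subtracted the ratios were 1.79, 1.504, 0.78 and 0.87.

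The ratios depended on the processing in a regular way. Without scaling, all ratios moved up by 0.24, and the median of all genes with them, from -0.10 to 0.15. Of the genes of the lower set, Ptges then had 0.19, Ptges2 0.18 and Cbr1 0.15, so that their sign is not fixed, while their distance from the median of all genes is not touched by such a shift. The ratios of Ptgds, Ptgs1, Ptgis and Tbxas1 stayed above 0 in 12 of 12 other settings, the lowest being 1.51, 0.96, 0.68 and 0.39. These 12 are not separate checks. Each of these genes has 1 spot, so the 3 summaries of spots and probes could not move its ratio. Several of the scalings shift all genes by the same amount.

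**Figure D3:**
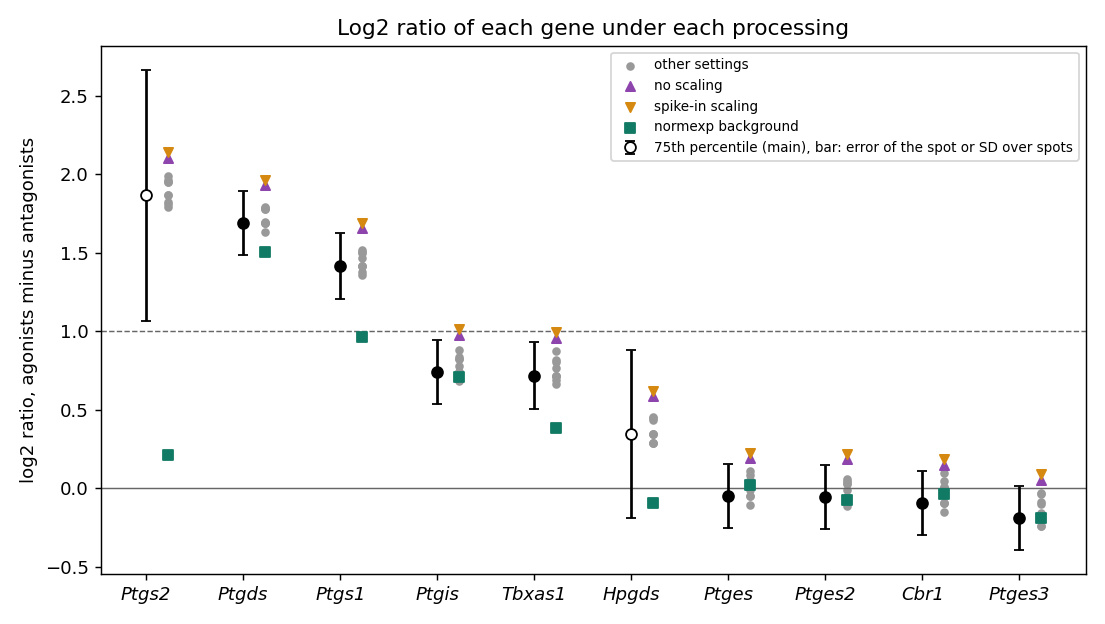
Log2 ratio (agonists minus antagonists) of each of the 10 genes with the 75th percentile scaling (black, bar: software error of the spot, or SD over 10 spots for Ptgs2; open where the antagonist signal was not well above background) and under the 12 other settings (coloured and grey). Ptgds, Ptgs1, Ptgis and Tbxas1 stay above 0 throughout, Ptges, Ptges2, Cbr1 and Ptges3 lie on both sides of 0, and Ptgs2 drops to 0.21 with the normexp background correction.

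The rest of the pathway was described from 3 lists of genes. Other enzymes that can make PGF2α and related reductases gave 8 genes well above background on both arrays, 2 of them 2-fold higher or more and 0 as far below, where 4.02% and 0.577% of all genes were, with a median log2 ratio of 0.12 against -0.10 over all genes. Both, Cbr2 and Akr1c18, lie among the dimmer genes, of which 6.39% were 2-fold higher or more. Cbr2, a carbonyl reductase related to Cbr1 by its reaction, gave 771 ± 77.1 in agonist culture against 80.5 ± 9.08 in antagonist culture, 8.09-fold higher. Its dimmer probe had 99.8 ± 10.9 and 30.7 ± 5.40, 2.75-fold, so the probes point the same way and differ in size. Akr1c18, the 20α-hydroxysteroid dehydrogenase that also reduces PGs, had 72.7 ± 8.47 and 30.005 ± 5.45, a log2 ratio of 1.04 ± 0.31. Akr1b8, an aldose reductase-like enzyme printed at 10 spots, had a log2 ratio of 0.66 with spots marked as outliers left out. The SD over all 10 spots, marked ones included, was 0.06. Akr1b3, the aldose reductase with PGF synthase activity, had -0.08 ± 0.20, and Prxl2b, the prostamide and PGF synthase, 0.16 ± 0.20. Akr1b10, Akr1b7 and Cbr3 lay between -0.20 and 0.08. Members of the Akr1b family are alike in sequence, and cross-binding between their probes was not checked.

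Of the 9 receptors of PGs and thromboxane, 6 were well above background on both arrays. Their log2 ratios were between 0.01 and 2.04, with a median of 0.77 against -0.10 over all genes. Of the 6, 2 were 2-fold higher or more and 0 as far below, where 4.02% and 0.577% of all genes were. All 6 lie among the dimmer genes, of which 6.39% were 2-fold higher or more. Tbxa2r, the thromboxane receptor, had 402 ± 40.4 and 82.7 ± 9.27, 4.11-fold higher with the agonists. The PGE2 receptor Ptger3 (EP3) had a log2 ratio of 1.11 ± 0.29 (its other probe was well above background with the agonists only, at least 1.52-fold higher), Ptger4 (EP4) 0.89 ± 0.23 and Ptger2 (EP2) 0.64 ± 0.21, while Ptger1 (EP1) had 0.01 ± 0.26. For the PGD2 receptor Ptgdr2 the value was 0.38 ± 0.37, at signals of 33.0 and 21.5 units. Ptgir, the prostacyclin receptor, was well above background with the agonists only, at least 1.93-fold higher. Ptgfr, the PGF2α receptor, and Ptgdr were not well above background on either array, so no ratio is given for them.

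Among the genes of substrate release, transport and clearance, 1 of 6 was 2-fold higher or more and 0 as far below. Over all genes well above background on both arrays, 4.02% and 0.577% were. The median log2 ratio of the 6 was 0.18, against -0.10 over all genes. The gene past 2-fold, Slco2a1, lies among the dimmer genes, of which 6.39% were 2-fold higher or more. Slco2a1, the transporter that takes PGs into cells for breakdown, had 310 ± 31.3 against 114 ± 12.3, 2.29-fold higher with the agonists. Pla2g4a, the cytosolic phospholipase A2 that frees arachidonic acid, had a log2 ratio of 0.19 ± 0.20, and Hpgd, which inactivates PGs, 0.16 ± 0.20. Ptgr2 had 0.29 ± 0.20, Abcc4, an exporter of PGs, -0.11 ± 0.20, and Ptgr1 -0.22 ± 0.20. Pla2g2a found no probe by its accession.

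**Figure D4:**
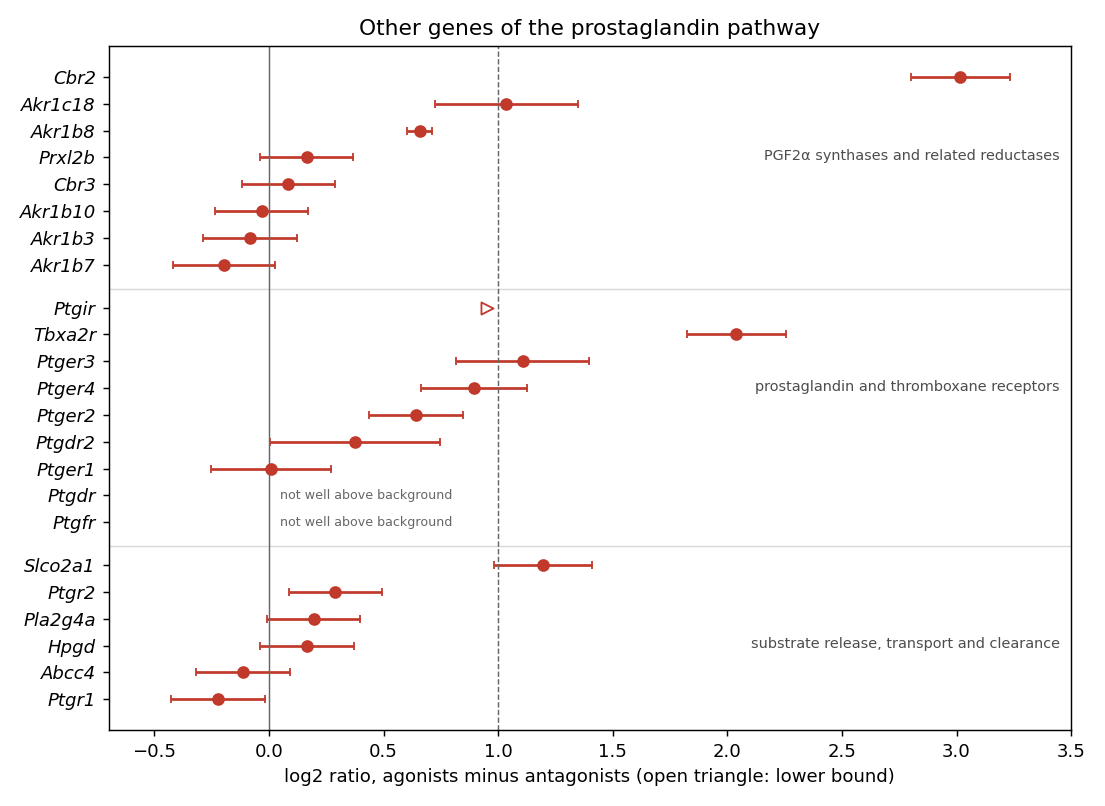
Log2 ratio (agonists minus antagonists, bar: software error of the spot, or SD over 10 spots for Akr1b8) of the other genes of the pathway, by list, with the dashed line at 2-fold. Cbr2 (3.02) and Tbxa2r (2.04) have the largest ratios; the open triangle is the lower bound of Ptgir.

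Markers of cell types that can hold these enzymes were not level between the arrays. Over all genes well above background on both arrays, 37.7% had a log2 ratio above 0, and the median was -0.10. The marker lists were chosen with earlier results of these data known. For macrophages, 7 of 7 measured markers were higher with the agonists (median log2 ratio 1.07), and their summed scaled signal, in units of the 75th percentile of the array, was 15.8 against 11.1 (agonists first, here and in what follows); Cd68 had no probe by its accession. For surface epithelium 7 of 7 were higher (median 1.15, summed signal 35.4 and 16.4), for smooth muscle 4 of 4 (0.71, 37.8 and 23.2; Des well above background with the agonists only), for endothelium 4 of 5 (0.48, 60.6 and 54.2; Tek likewise) and for stroma 4 of 5 (0.34, 365 and 308). Of the platelet list 3 of 6 were well above background, with Pf4 at 1.15 and Treml1 at 1.34 but Gp1bb at -0.29, while Itga2b, Gp9 and Ppbp were not well above background on either array (summed signal 2.97 and 1.39). Of the mast cell list 5 of 8 were not well above background on either array, among them Cpa3, Fcer1a and Ms4a2 (summed signal 8.06 and 3.47, most of it Hdc and Kit, the latter also an oocyte gene). The lymphocyte list had 1 of 3 measured genes higher (median -0.22, summed signal 3.58 and 3.997). For granulosa cells 2 of 6 markers were higher, a share near that of all genes (median -0.57, summed signal 95.0 and 124). For oocytes 3 of 6 were higher (median 0.03, 234 and 243), and for theca and steroidogenic cells 2 of 4 (median -0.10, 85.1 and 84.1). The part of these cell types in the ratios of the PG synthesis genes was not tested.

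**Figure D5:**
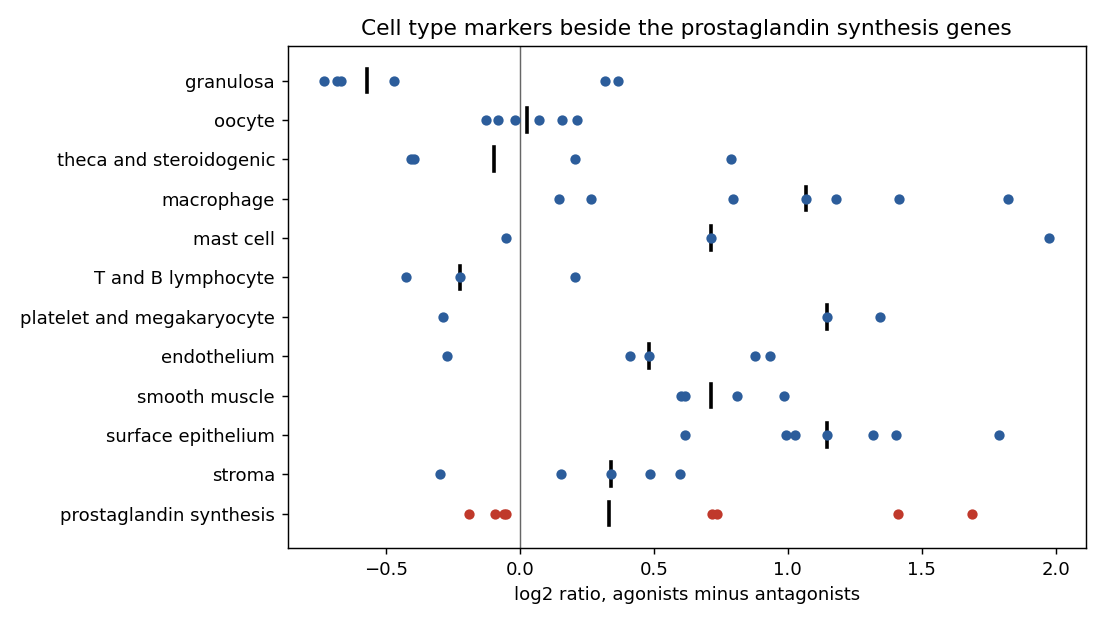
Log2 ratio (agonists minus antagonists) of each marker well above background on both arrays (blue), by cell type, with the 8 prostaglandin synthesis genes measured on both arrays (red) and the median of each row (black line). All surface epithelium, macrophage and smooth muscle markers lie above 0, and the red points fall in a set above 0.7 and a set below 0.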

How the data were processed

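Gene expression was measured on 2 Agilent SurePrint G3 mouse arrays. The authors had them scanned and read with Agilent Feature Extraction 10.10.1.1 and deposited, for each spot, the intensity on a linear scale after background correction, without scaling between arrays, with its error and marks. Their summary table holds the same intensity times a constant per array (1.99 and 2.19). Both arrays lay on 1 slide.

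Control spots were left out. Spots marked as outliers were left out when the spots of a probe were averaged, but not from the SD between spots. The signal was taken as log2 after division by the 75th percentile of all probes of the array, and averaged over the spots of a probe. A gene was represented by its brightest probe, named through RefSeq accessions; 27243 probes had a symbol. A probe was called well above background when the software marked over 50% of its spots so. A dim signal was replaced, for a lower bound, by the lowest signal well above background on that array (19.9 units with the antagonists). No test was made. The genes named are all 10 members, 3 pathway lists and marker lists, which were chosen with earlier results of these data known. The 12 alternatives were 8 other scalings, sources or background corrections, 3 summaries of spots and probes, and centring on neighbouring spots, with other thresholds and filters for counts. Python 3.11.15, R 4.3.3 and limma 3.58.1 were used, and the calculation was tested on simulated data.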

Additional observations from a re-analysis of the deposited data

How the results depend on the processing

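No paired analysis was possible because each group has 1 array and nothing was tested. Of 120 values of the log2 ratios of the 10 genes, 101 moved by less than their error and 19 by more. Some could not move, since the 3 summaries of spots and probes leave a gene with 1 spot as it is. The errors of Ptgs2 and Hpgds, 0.80 and 0.54, were wide, so this tally is no measure of robustness. The 8 spike-in probes had a median log2 ratio of -0.03 before scaling; scaling on them gave 1.96 for Ptgds, 1.69 for Ptgs1, 1.01 for Ptgis and 0.99 for Tbxas1, which put Ptgis past 2-fold. The normexp correction lowered the dim genes most, Ptgs1 to 0.96, Tbxas1 to 0.39, Ptgs2 to 0.21 (a bound of 1.16-fold) and Hpgds to -0.10, while Ptgds had 1.51 and Ptgis 0.71. Centring on neighbouring spots was chosen after seeing the data and left 2 genes at least 2-fold higher.

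The number of PG synthesis genes at least 2-fold higher was 2, and became 1 with normexp, 4 at 1.5-fold, 0 at 4-fold and 0 among the bright genes, whose mean signal reaches the 75th percentile. The shares of all probes higher and lower, 2.69% and 0.705%, became 4.53% and 0.296% without scaling, 1.24% and 0.181% with normexp, 4.91% and 0.266% when scaled on the spike-ins, 6.95% and 4.90% at 1.5-fold, 0.384% and 0.0544% at 4-fold, 5.997% and 4.19% when dim probes were kept, and 1.73% and 0.232% among the bright probes; the lower share became 0.451% with the authors' table and 1.23% with dim values at the floor.

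Without scaling, and then on the spike-ins, the medians became 0.58 and 0.61 for PG synthesis, 0.37 and 0.40 for PGF2α synthases, 1.01 and 1.04 for receptors, and 0.42 and 0.46 for release, transport and clearance, by the shift common to all genes. The receptor median was 0.37 with normexp, where 1 receptor and 0 genes of release, transport and clearance were at least 2-fold higher. The count of PGF2α synthases at least 2-fold higher was 1 with scaling on the median, with quantile normalization and with normexp. The bound of Hpgds dropped below 1-fold, so that none could be given, with scaling on the median, quantile normalization, loess and normexp. What limits Ptgs2 and Hpgds is signal over background. A value on 1 spot per array has no check of the ovaries.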
